A study of Mus musculus with 209 samples.

Results

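The comparison concerns 2-cell mouse embryos whose mothers lacked Nlrp14 (KO) and wild-type 2-cell embryos (WT), profiled by RNA sequencing of polyA RNA. It holds 17 of the 209 libraries of the series, 9 KO and 8 WT, chosen by genotype and stage from the labels, which name the KO genotype as N14 maternal KO. According to the labels, all 17 came from superovulated C57BL/6 females of 6 to 8 weeks injected with PMSG and hCG. The 2-cell stage was collected 42 to 43 hours after hCG, and MII oocytes, used here for context, 14 to 15 hours after hCG. The protocol names C57BL/6 or PWK males as sires, but not which of them sired these embryos. The Nlrp14 allele, any Cre driver and the mothers of the individual embryos are not given in the sources used here. The labels call each library single-cell data and name no animal or litter, so libraries of a group may share a mother or an embryo, and whether 1 library is a blastomere or a whole embryo is not given either. Each group was therefore treated as 1 sample, with no test between groups. Ratios are of counts pooled over the libraries of a group, and their intervals (95%, exact, conditional on the summed count) cover counting error only.

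Nlrp14 codes for a member of the NLR protein family that the growing oocyte makes and stores, and it is known as a maternal-effect gene, needed in the mother's oocyte for the early embryo. At the 2-cell stage the mouse embryo performs its major wave of zygotic genome activation. Genes silent in the oocyte are switched on, among them a short-lived burst of Zscan4, Zfp352 and other 2-cell genes, followed by broad activation of ribosome and housekeeping genes. Over the same hours most messages stored by the oocyte are broken down. Proteins of the subcortical maternal complex, such as NLRP5, OOEP and TLE6, are stored in the egg cortex. UHRF1, TET3 and DPPA3 act on DNA methylation in the early embryo.

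The KO libraries held 2704050 to 15007301 gene counts and the WT libraries 3788348 to 10303580, and 1989 to 7268 and 4489 to 6992 counts of ERCC spike-in RNA. One WT library stood apart. WT replicate 8 had a Pearson correlation of 0.951 with the gene-wise median of the KO libraries and 0.710 with that of WT replicates 1 to 7, computed on log2(CPM + 1) where CPM is the count of a gene scaled to 1000000 gene counts per library. For WT replicates 1 to 7 these correlations ranged from 0.587 to 0.832 with the KO median and from 0.842 to 0.937 with their own. Each library was left out of the median it was compared with, and these values are a description. Whether WT replicate 8 carries the right label, or came from an embryo of another stage, was not tested, and every pooled WT value that includes it rests on its label. Values are with WT replicate 8 unless stated. The 2-cell label was checked against markers. All 9 of the 2-cell markers present in the table were detected, with summed levels of 236 to 3133 CPM in KO libraries, against 954 to 2230 CPM in WT libraries. The 10 oocyte markers summed to 3525 to 25677 CPM in KO libraries, with a median of 9538. In WT libraries they summed to 1545 to 8461 CPM, with a median of 2401. The 7 later embryo markers summed to 8.32 to 57.0 CPM in KO libraries and 24.7 to 73.1 CPM in WT libraries. Cumulus and granulosa markers summed to 54.8 to 79.5 CPM in KO libraries and 45.6 to 158 CPM in WT libraries. The 15 sperm and testis markers summed to 147 to 314 CPM in KO libraries and 99.7 to 280 CPM in WT libraries, nearly all of it Odf2, and Smcp and Acr were at 0 in every library.

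Nlrp14 messages were lower in every KO library than in any WT library. The level was 29.4 to 86.4 CPM in KO libraries, with a median of 67.3, against 106 to 477 CPM in WT libraries, with a median of 287. WT replicate 8 held the lowest WT value, 106 CPM, and the next lowest was 207 CPM. The pooled log2 ratio of KO over WT was -2.03 (95% counting interval -2.08 to -1.97), and -2.27 without WT replicate 8. Per 1000 ERCC counts, Nlrp14 stood at 33.2 to 181 in KO libraries and 181 to 404 in WT libraries, and the log2 ratio was -1.20. In the MII oocytes with spike-in the pooled level was 46.7 CPM in KO and 392 CPM in WT. Residual Nlrp14 counts in KO 2-cell libraries were almost all assigned to the maternal allele, with 0 or 1 paternal counts in 8 of them. KO replicate 3 was the exception, with 18 paternal and 15 maternal counts. Where in Nlrp14 the residual reads lie cannot be read from counts per gene, so they do not show whether a working message remained.

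For 3 genes the 250 bases upstream of the transcript start are printed as examples. Zscan4d, a 2-cell burst gene, was not lower in KO libraries. Trim43a, another 2-cell gene, was far lower. Inafm2 had the lowest ratio among separated genes at 20 CPM or more in the higher pool. The sequences are from RefSeq on GRCm38.p6, 5′ to 3′ on the strand of the gene, while the submitters' processing notes name mm9 for the reads. Capitals mark TATAAA and CCAAT, searched on both strands. The windows are chr7:11166149-11166398 (minus strand), chr9:88580641-88580890 (plus strand) and chr2:118745508-118745757 (plus strand), in this order.
Zscan4d: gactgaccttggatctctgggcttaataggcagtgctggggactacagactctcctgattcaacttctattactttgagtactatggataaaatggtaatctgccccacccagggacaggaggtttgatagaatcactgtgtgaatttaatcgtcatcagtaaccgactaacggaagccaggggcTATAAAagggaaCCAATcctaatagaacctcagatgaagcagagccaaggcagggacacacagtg
Trim43a: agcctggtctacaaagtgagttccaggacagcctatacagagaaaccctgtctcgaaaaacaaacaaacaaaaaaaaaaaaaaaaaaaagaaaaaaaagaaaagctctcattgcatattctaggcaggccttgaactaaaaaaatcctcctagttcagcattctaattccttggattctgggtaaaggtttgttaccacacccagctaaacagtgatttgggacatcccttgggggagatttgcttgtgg
Inafm2: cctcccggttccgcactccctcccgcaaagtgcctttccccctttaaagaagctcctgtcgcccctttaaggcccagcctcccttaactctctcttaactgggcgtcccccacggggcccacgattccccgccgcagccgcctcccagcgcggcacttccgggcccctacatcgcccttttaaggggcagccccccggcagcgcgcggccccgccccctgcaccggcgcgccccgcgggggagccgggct
The Zscan4d window holds both motifs, starting 65 and 53 bases before the transcript start, and the other two windows hold neither. The Inafm2 window has 25 CpG sites, the Trim43a window 1 and the Zscan4d window 3. Of all 32851 windows of this length, 12.4% hold TATAAA and 33.8% hold CCAAT. Among genes 2-fold lower in KO libraries, 6.38% of 2540 windows hold TATAAA and 38.0% hold CCAAT, and among genes 2-fold higher, 7.72% and 40.4% of 505 windows. Over all measured genes these shares are 6.88% and 37.4%, and they are a description of letters only.

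KO libraries held more messages relative to the spike-in than WT libraries. Gene counts per ERCC count ran from 1044 to 2090 with a median of 1639 in KO libraries. In WT replicates 1 to 7 they ran from 742 to 992, and WT replicate 8 had 1714. No KO library overlapped WT replicates 1 to 7. The ratio of the KO to the WT median was 1.87, and 1.92 without WT replicate 8. From pooled counts the ratios were 1.77 and 2.01. Whether the same amount of ERCC RNA was added to each library is not given in the sources used here, and 22 to 30 ERCC species were detected per library. Over the 15 most abundant species, the log2 shares in pairs of libraries had a median correlation of 0.884, and the lowest was 0.608. More messages per cell and less spike-in per library cannot be told apart. Rn45s, the ribosomal RNA precursor, took 0.513% to 0.935% of gene counts in KO libraries. It took 1.11% to 1.71% in WT replicates 1 to 7 and 0.621% in WT replicate 8.

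**Figure D1:**
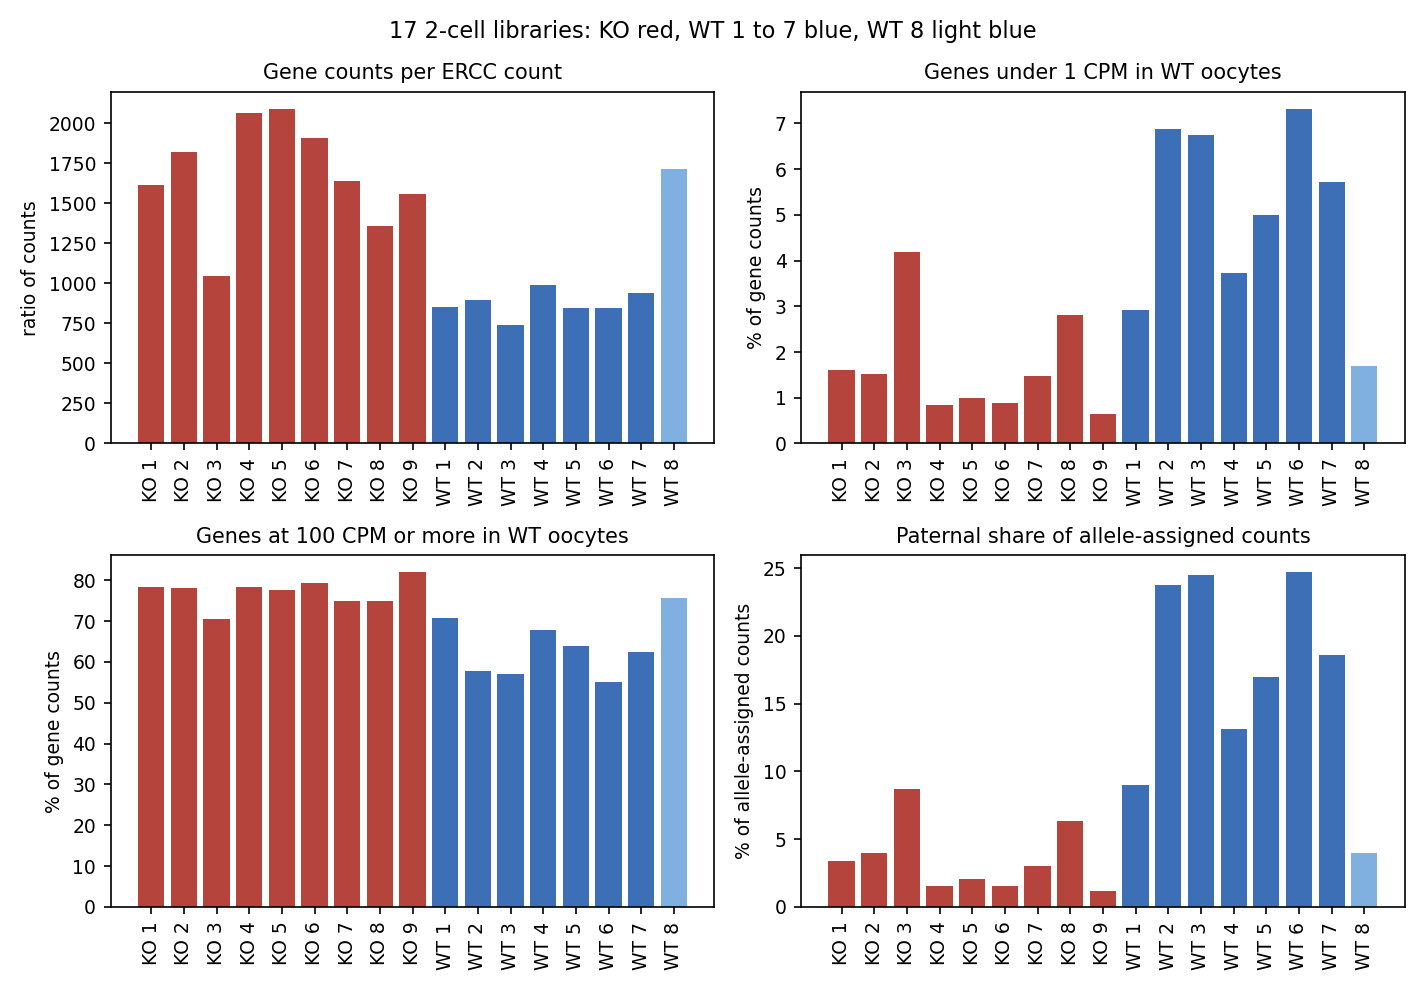
Each bar is 1 library, KO in red left of WT in blue, with WT replicate 8 in light blue; the panels show gene counts per ERCC count, the share of gene counts (%) from genes under 1 CPM and from genes at 100 CPM or more in WT oocytes, and the paternal share (%) of allele-assigned counts. WT replicate 8, at 1714 gene counts per ERCC count, lies within the range of the KO libraries (1044 to 2090), and it also lies within the KO range in the other panels.

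The composition of the messages also differed. Genes silent in oocytes contributed less in KO embryos, and genes abundant in oocytes contributed more. Genes were classed by their pooled level in WT MII oocytes, which use no 2-cell library. The 14158 genes under 1 CPM in WT oocytes gave 0.646% to 4.18% of KO gene counts, with a median of 1.48%. They gave 2.92% to 7.32% in WT replicates 1 to 7, with a median of 5.72%, and 1.70% in WT replicate 8. The KO and WT ranges overlapped through KO replicate 3, the highest KO library. The 1797 genes at 100 CPM or more in oocytes gave 70.5% to 81.9% of KO gene counts, with a median of 78.2%. They gave 55.1% to 70.8% in WT replicates 1 to 7, with a median of 62.5%, and 75.6% in WT replicate 8.

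Scaled to the spike-in, the medians differed in the same directions. Genes under 1 CPM in oocytes gave 24.3 counts per ERCC count in the median KO library, against 50.0 in the median of WT replicates 1 to 7 and 29.1 in WT replicate 8. Their ranges overlapped, at 10.1 to 43.6 in KO libraries and 24.9 to 61.8 in WT libraries. Genes at 100 CPM or more gave 1279 in the median KO library, against 541 in the median of WT replicates 1 to 7 and 1295 in WT replicate 8. For that class the lowest KO library, at 736, lay above the highest of WT replicates 1 to 7, at 671. In the allele tables the KO and WT ranges did not overlap without WT replicate 8. Paternal counts were 1.21% to 8.68% of allele-assigned counts in KO libraries, 9.03% to 24.7% in WT replicates 1 to 7 and 4.00% in WT replicate 8.

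A gene was called different at a 2-fold ratio of pooled values, among genes with 10 CPM or more in either pool. By CPM, 2658 of 8416 genes were lower in KO libraries (31.6%) and 502 were higher (5.96%). Without WT replicate 8, 3187 of 8648 were lower (36.9%) and 981 were higher (11.3%). Per ERCC count the balance was the reverse, with 1454 lower (17.3%) and 2493 higher (29.6%). Without WT replicate 8 these were 1699 (19.6%) and 3139 (36.3%). The change of scaling moved every log2 ratio up by 0.82, from a median over all measured genes of -0.35 by CPM to 0.47 per ERCC count. Lower genes made up 84.1% of the calls by CPM and 36.8% per ERCC count. TMM and DESeq2 scaling, which centre most genes near 0, gave 64.9% and 70.0%. By construction the 1454 genes lower per ERCC count were also lower by CPM, and the 502 genes higher by CPM were also higher per ERCC count, so these calls do not turn on the choice between the 2 scalings.

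Separation of single libraries gives a stricter reading. By CPM every KO library lay below every WT library for 115 genes (1.37%) and above for 28 genes (0.333%). Against WT replicates 1 to 7 the counts were 1157 below (13.4%) and 305 above (3.53%), so WT replicate 8 alone removed most of them. Per ERCC count and against WT replicates 1 to 7, 389 genes lay below (4.5%) and 1068 above (12.3%).

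The class of a gene in oocytes tracked its ratio. Of 830 measured genes under 1 CPM in WT oocytes, 732 were 2-fold lower in KO libraries by CPM and 6 were higher, with a median log2 ratio of -2.55. Per ERCC count 604 of them were lower, with a median of -1.73. Such genes entered only if a 2-cell pool reached 10 CPM, which selects for a difference, and the shares of counts above carry no such filter. Of 1797 genes at 100 CPM or more in oocytes, 105 were lower by CPM and 192 higher, with a median of 0.14. Per ERCC count 858 of these were higher and 10 lower, with a median of 0.97.

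**Figure D2:**
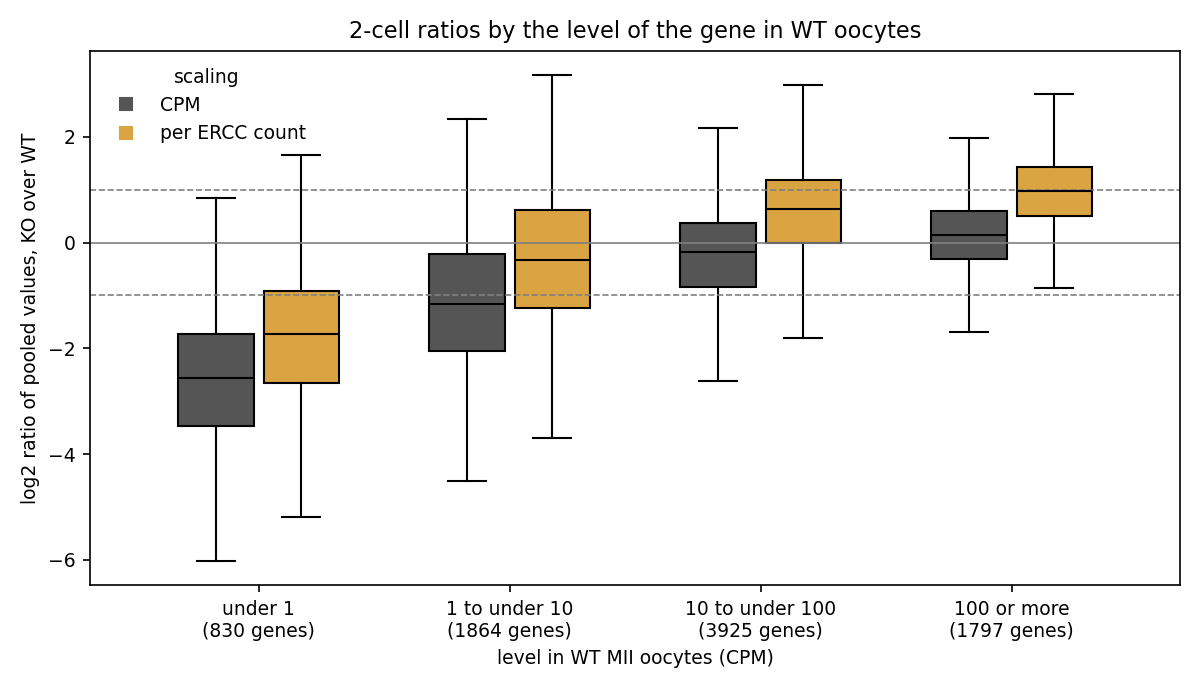
Boxes show the log2 ratio of pooled values, KO over WT with all 8 WT libraries, for measured genes grouped by level in WT MII oocytes (CPM), scaled by CPM (grey) or per ERCC count (yellow); the line is the median, the box the quartiles and the whiskers reach at most 1.5 box heights, and dashed lines mark 2-fold. Medians climb from -2.55 to 0.14 by CPM and from -1.73 to 0.97 per ERCC count.

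The 12 lowest named genes were near absent from KO libraries and were all under 1 CPM in WT oocytes. They were the lowest by pooled CPM among genes at 20 CPM or more in the higher pool whose 9 KO libraries all lay below WT replicates 1 to 7, and the 12 highest were taken in the same way from genes whose KO libraries all lay above, so the separation is part of the choice and is a description. Inafm2 was at 0 to 1.49 CPM in KO libraries, with a median of 0.234, against 9.24 to 167 CPM in WT replicates 1 to 7, with a median of 45.3. It was at 0 in WT replicate 8. Its log2 ratio was -7.01 (-7.63 to -6.46), and -6.19 per ERCC count. Zfp280c, a zinc finger gene, had a median of 0 CPM in KO libraries and 63.9 CPM in WT replicates 1 to 7, with 8.4 CPM in KO replicate 1, the highest KO value, and 2.81 CPM in WT replicate 8. The log2 ratio was -6.82 and became -9.42 without KO replicate 1.

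Among the other 10, Lck codes for a Src-family kinase known from T cells. It was at 0 to 2.49 CPM in KO libraries, 17.5 to 56.5 CPM in WT replicates 1 to 7 and 0.679 CPM in WT replicate 8. Arg1, the urea cycle arginase, was at 0 to 9.62 CPM in KO libraries, 22.7 to 117 CPM in WT replicates 1 to 7 and 3.59 CPM in WT replicate 8. For both genes WT replicate 8 fell within the KO range, and the log2 ratio of Arg1, -5.83, became -6.43 without KO replicate 3. Smad7, an inhibitor of TGF-beta signalling, was at 0 to 5.18 CPM in KO libraries, 36.6 to 98.7 CPM in WT replicates 1 to 7 and 5.82 CPM in WT replicate 8. Nop16, which acts in ribosome assembly in the nucleolus, had a median of 2.02 CPM in KO libraries and 139 CPM in WT replicates 1 to 7, with 2.04 CPM in WT replicate 8. Cited1, a coactivator that binds CBP and p300, had a log2 ratio of -5.20, which became -4.53 without WT replicate 3. The remaining 5 were Iqub, Unc119b, a carrier of myristoylated proteins, Tor1b, a torsin ATPase, Hsd17b14, a steroid dehydrogenase, and Calcoco2, an autophagy receptor. Their log2 ratios were -6.38, -6.14, -5.78, -5.58 and -5.30 in this order. Leaving out 1 library moved Iqub to -7.08 (KO replicate 1), Unc119b to -6.99 (KO replicate 5) and Hsd17b14 to -6.61 (KO replicate 4).

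The 12 highest named genes were all at 25.0 CPM or more in WT oocytes, 6 of them at 100 CPM or more, and several are oocyte genes by name. Such levels were common. Of 8416 measured genes, 3925 were at 10 to under 100 CPM in WT oocytes and 1797 at 100 CPM or more. H1foo, the oocyte linker histone, ranged from 874 to 12127 CPM in KO libraries with a median of 2679, against 69.8 to 174 CPM in WT replicates 1 to 7. WT replicate 8 had 1786 CPM, inside the KO range. The log2 ratio of 3.42 (3.40 to 3.43) became 5.63 without WT replicate 8 and 2.71 without KO replicate 4, which held the highest value and the most counts. Zar1, a maternal RNA-binding protein needed after fertilization, ranged from 52.1 to 881 CPM in KO libraries, against 16.6 to 32.1 CPM in WT replicates 1 to 7 and 140 CPM in WT replicate 8. The log2 ratio, 2.75, became 3.91 without WT replicate 8 and 1.76 without KO replicate 4.

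Plat, the tissue plasminogen activator stored in oocytes, had a log2 ratio of 2.48, with 1.34 left without KO replicate 4 and 3.49 without WT replicate 8. Bin2, at 2.35, moved to 1.43 without KO replicate 4 and 3.17 without WT replicate 8. Astl, the ovastacin protease that cleaves ZP2 at fertilization, was at 15.9 to 70.7 CPM in KO libraries, 1.16 to 11.6 CPM in WT replicates 1 to 7 and 20.8 CPM in WT replicate 8. Its ratio was 2.27, and 3.23 without WT replicate 8. Cxcr3, a chemokine receptor gene, was at 11.7 to 101 CPM in KO libraries, 0 to 5.22 CPM in WT replicates 1 to 7 and 35.8 CPM in WT replicate 8. Its ratio was 2.52, and 5.14 without WT replicate 8. Sdha, a subunit of respiratory complex II, was at 60.1 to 188 CPM in KO libraries, 6.07 to 28.2 CPM in WT replicates 1 to 7 and 50.8 CPM in WT replicate 8. Ube2d1, a ubiquitin-conjugating enzyme, Nr2c1, a nuclear receptor, Nat14, Vta1, a partner of the ESCRT machinery, and Dusp1, a MAP kinase phosphatase, had log2 ratios of 2.16, 2.08, 2.06, 2.00 and 1.96 in this order, and Nat14 reached 2.94 without WT replicate 8.

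**Figure D3:**
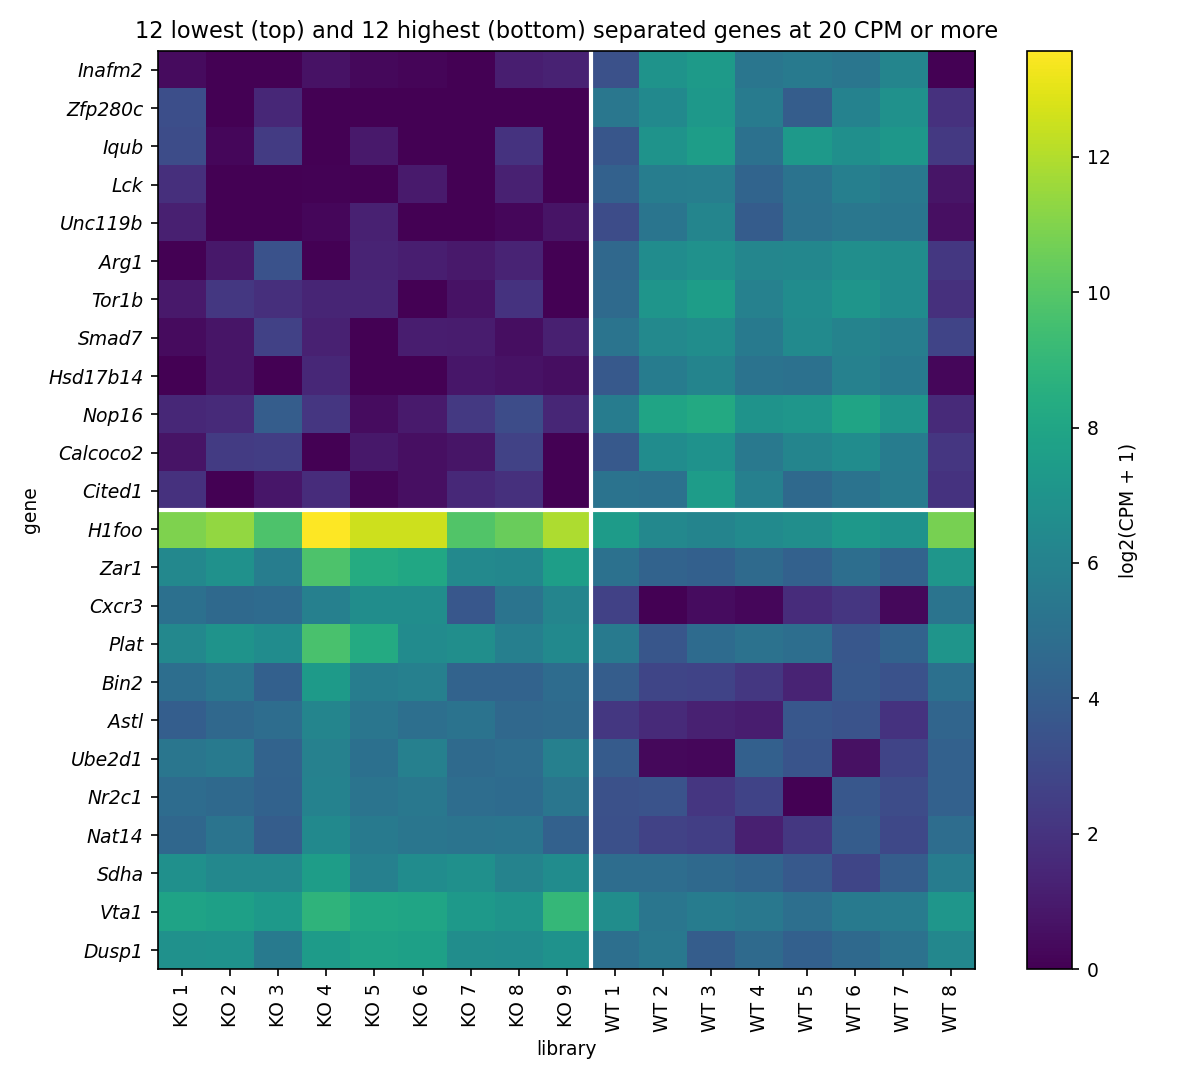
Colour gives log2(CPM + 1) of the 12 lowest named genes above the white line and the 12 highest below it, by library, with the 9 KO libraries left of the 8 WT libraries. The WT replicate 8 column has the KO pattern in both blocks, for example 0.679 CPM of Lck and 1786 CPM of H1foo.

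The 2-cell burst genes fell into separate patterns. Of 30 measured genes of this list, 14 were lower in KO libraries by CPM and 2 were higher, with a median log2 ratio of -0.96 beside -0.35 over all measured genes. Per ERCC count 12 were lower and 11 higher, with a median of -0.14 beside 0.47. Shares over all measured genes were 31.6% lower and 5.96% higher by CPM, and 17.3% and 29.6% per ERCC count. By CPM no gene of the list was 2-fold higher when KO replicate 3 or KO replicate 8 was left out. Without WT replicate 8, 4 of the 30 were higher, near the 11.3% of all measured genes on that setting. Zscan4c, a telomere and burst gene of the 2-cell embryo, was at 31.3 to 793 CPM in KO libraries with a median of 143, against 47.4 to 223 CPM in WT replicates 1 to 7 and 129 CPM in WT replicate 8. Zscan4d was at 33.6 to 564 CPM in KO libraries, 84.4 to 172 CPM in WT replicates 1 to 7 and 90.5 CPM in WT replicate 8. KO libraries lay on both sides of the WT range for both genes. The 5 measured Zscan4 genes had log2 ratios of 0.35 to 1.14. They share near-identical sequence, as do the Usp17l, Trim43 and Obox families, so the authors' counting may have moved reads between copies.

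Zfp352, a zinc finger gene of the burst, was at 43.9 to 814 CPM in KO libraries, 228 to 513 CPM in WT replicates 1 to 7 and 633 CPM in WT replicate 8, with a log2 ratio of -0.44. Usp17lc, a deubiquitinase gene, was at 17.7 to 136 CPM in KO libraries, 30.5 to 84.7 CPM in WT replicates 1 to 7 and 71.8 CPM in WT replicate 8, with a log2 ratio of 0.20. These 4 genes were chosen after their values were seen, as genes known to mark the burst. The ranges of KO and WT libraries overlapped for all 4.

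Other genes of the list were far lower. Trim43b, of a TRIM family expressed before implantation, was at 1.07 to 152 CPM in KO libraries with a median of 26.0, against 180 to 666 CPM in WT replicates 1 to 7 and 33.8 CPM in WT replicate 8. Its log2 ratio was -3.58 (-3.66 to -3.51), and -2.76 per ERCC count. Its copy Trim43a, also chosen after its values were seen, was at 0.2 to 138 CPM in KO libraries, 109 to 538 CPM in WT replicates 1 to 7 and 19.7 CPM in WT replicate 8. Crxos, a homeobox gene of the early embryo, was at 0 to 55.8 CPM in KO libraries with a median of 1.13, against 59.3 to 359 CPM in WT replicates 1 to 7 and 5.05 CPM in WT replicate 8. Its ratio of -4.67 (log2) became -5.29 when either KO replicate 3 or KO replicate 8 was left out. Timd2, at 0 to 52.5 CPM in KO libraries and 27.1 to 585 CPM in WT replicates 1 to 7, had a log2 ratio of -4.18, and its highest KO libraries reached into the WT range.

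KO libraries differed among themselves in these genes. KO replicate 3 held the highest KO value for 26 of the 30 genes and KO replicate 8 for 3 of them. KO replicates 9 and 4 held the lowest for 12 and 11 genes. The 32 burst genes in the table summed to 0.787% of gene counts in KO replicate 3 and 0.0620% in KO replicate 9, and to 0.206% in WT replicate 8 and 0.580% in WT replicate 6. KO replicates 3 and 8 also had the highest paternal shares among KO libraries, 8.68% and 6.34%.

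**Figure D4:**
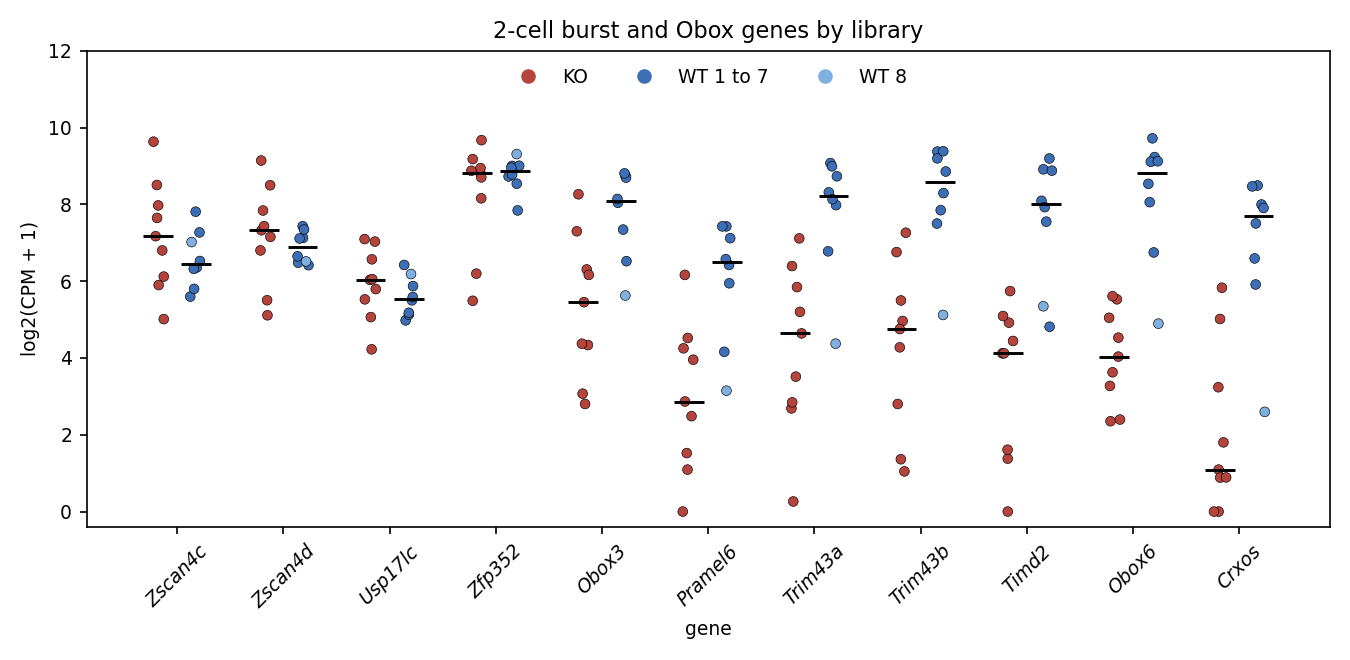
Points are libraries on a log2(CPM + 1) axis for 2-cell burst and Obox genes, with KO (red) left of WT (blue, WT replicate 8 in light blue) and bars at the medians of all 9 KO and all 8 WT libraries. Zscan4c, Zscan4d, Usp17lc and Zfp352 overlap between KO and WT, while Trim43b and Obox6 in KO libraries lie below WT replicates 1 to 7.

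Obox genes are oocyte and early embryo homeobox factors that take part in genome activation. Of 6 measured, 2 were lower by CPM, 1 was higher and 3 were within 2-fold, and per ERCC count 2 were lower and 4 higher. Obox6, at 0.0770 CPM in WT oocytes with spike-in, was at 4.11 to 47.8 CPM in KO libraries, 106 to 842 CPM in WT replicates 1 to 7 and 28.7 CPM in WT replicate 8. Its log2 ratio was -4.41, and -3.58 per ERCC count. Obox3 had a log2 ratio of -2.19, with 5.97 to 306 CPM in KO libraries overlapping 90.8 to 447 CPM in WT replicates 1 to 7. Obox1, at 769 CPM in WT oocytes with spike-in, was higher, at 332 to 812 CPM in KO libraries, 78.9 to 429 CPM in WT replicates 1 to 7 and 346 CPM in WT replicate 8. Its log2 ratio was 1.26. Of 29 measured regulators of genome activation, 12 were lower by CPM and 2 higher, and 9 were lower and 4 higher per ERCC count. Without WT replicate 8, 17 of 31 were lower and 3 higher by CPM, and 11 were lower and 7 higher per ERCC count. Both lists are read against all measured genes, 31.6% lower and 5.96% higher by CPM, and 17.3% and 29.6% per ERCC count. Without WT replicate 8 these shares were 36.9% and 11.3% by CPM, and 19.6% and 36.3% per ERCC count. Dppa4, known to activate Dux in mouse embryonic stem cells, was at 0.213 to 65.8 CPM in KO libraries, 57.1 to 309 CPM in WT replicates 1 to 7 and 37.3 CPM in WT replicate 8, with a log2 ratio of -3.62. Gabpa, an ETS-family factor, was at 11.52 to 210 CPM in KO libraries, 245 to 809 CPM in WT replicates 1 to 7 and 109 CPM in WT replicate 8, with a log2 ratio of -3.33.

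Ribosome genes were lower as a group. Of 78 measured cytosolic ribosomal protein genes, 70 were 2-fold lower by CPM and none was higher, with a median log2 ratio of -2.25 beside -0.35 over all measured genes. Per ERCC count 52 were lower and 0 higher, with a median of -1.42 beside 0.47. For 58 of the 78 every KO library lay below WT replicates 1 to 7 by CPM, beside 13.4% of all genes measured without WT replicate 8. Of all measured genes, 31.6% were lower and 5.96% higher by CPM, and 17.3% and 29.6% per ERCC count. Rpl39 was at 2.35 to 9.46 CPM in KO libraries, 67.3 to 353 CPM in WT replicates 1 to 7 and 6.99 CPM in WT replicate 8. Rpl38 was at 1.41 to 4.70 CPM in KO libraries, 25.7 to 86.0 CPM in WT replicates 1 to 7 and 1.75 CPM in WT replicate 8. Their log2 ratios were -4.18 and -3.93, and WT replicate 8 lay within the KO range for both. Many ribosomal protein genes have processed pseudogenes, and how the authors assigned reads shared with them is not given in the sources used here. Ribosome biogenesis genes had 40 of 57 lower and 0 higher by CPM, with a median of -1.46, and 23 lower and 2 higher per ERCC count. Wdr12, a ribosome assembly factor, was at 0 to 10.8 CPM in KO libraries, 50.8 to 150 CPM in WT replicates 1 to 7 and 0.0971 CPM in WT replicate 8. At -4.89, its log2 ratio became -5.53 without KO replicate 8. Polr1e, a subunit of RNA polymerase I, had a log2 ratio of -4.51.

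Other housekeeping lists varied, and are read against the 31.6% of all measured genes that were lower and the 5.96% that were higher by CPM, and the 17.3% and 29.6% per ERCC count. Respiratory chain subunits had 39 of 68 lower and 1 higher by CPM, and 23 and 6 per ERCC count. Ndufc1, of complex I, was at 0.363 to 15.5 CPM in KO libraries, against 11.9 to 48.8 CPM in WT replicates 1 to 7, and Cox7c, of complex IV, at 0.853 to 15.5 CPM against 17.7 to 65.7 CPM. WT replicate 8 had 1.94 CPM of Ndufc1 and 8.64 CPM of Cox7c, inside the KO range for both. Splicing factors had 22 of 41 lower and 2 higher by CPM, and 8 and 10 per ERCC count. Snrpd2, a core protein of the spliceosome, was at 1.87 to 12.2 CPM in KO libraries, against 36.0 to 122 CPM in WT replicates 1 to 7. Srsf7, a splicing regulator, was at 27.7 to 135 CPM in KO libraries, against 224 to 720 CPM in WT replicates 1 to 7. In WT replicate 8 Snrpd2 was at 1.65 CPM, below every KO library, and Srsf7 at 44.8 CPM, inside the KO range. Proteasome subunits had 15 of 33 lower and 5 higher by CPM, and 8 and 9 per ERCC count. The count of 5 higher by CPM became 2 without KO replicate 4 and 3 without KO replicate 9 or without WT replicate 1, 4 or 7. Psma6, of the core particle, was at 6.24 to 19.5 CPM in KO libraries, against 49.2 to 276 CPM in WT replicates 1 to 7. WT replicate 8, at 13.2 CPM of Psma6, lay inside the KO range. Translation initiation factors had 15 of 37 lower and 2 higher by CPM, with Eif3g at -3.22, and 6 lower and 8 higher per ERCC count, or 4 higher without KO replicate 4. Chaperonin and heat shock genes had 7 of 23 lower and 0 higher by CPM, a share of lower genes near that of all genes, and 2 lower and 6 higher per ERCC count. Of tRNA synthetases, 4 of 16 were lower and 4 higher by CPM, with a median of -0.12, above the -0.35 of all genes, and 3 were lower and 5 higher per ERCC count, or 8 higher without KO replicate 7.

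The transcription machinery stood near the background. Of 78 measured RNA polymerase II genes, 23 were lower by CPM and 2 higher, with a median log2 ratio of -0.30, near the -0.35 of all measured genes, and the share of lower genes was near the 31.6% of all genes. Per ERCC count 12 were lower and 20 higher, with a median of 0.52. On that scaling 17.3% of all measured genes were lower and 29.6% higher, with a median of 0.47. By CPM 5.96% of all measured genes were higher. Without WT replicate 8, 27 of these polymerase genes were lower and 8 higher by CPM. On that setting 36.9% of all measured genes were lower and 11.3% higher. Med29, of the Mediator complex, was at 1.69 to 43.3 CPM in KO libraries, 71.7 to 392 CPM in WT replicates 1 to 7 and 27.9 CPM in WT replicate 8. Polr2k, a small polymerase subunit, was at 0.484 to 11.46 CPM in KO libraries, 28.9 to 123 CPM in WT replicates 1 to 7 and 4.66 CPM in WT replicate 8. Replication and cell cycle genes had 15 of 61 lower and 6 higher by CPM, with a median of 0.00, and 7 lower and 27 higher per ERCC count. Prim1, the primase subunit, was at 1.87 to 26.2 CPM in KO libraries, against 51.8 to 151 CPM in WT replicates 1 to 7. WT replicate 8, at 21.2 CPM of Prim1, lay inside the KO range. Replication-dependent histones had 4 of 69 genes measured, 1 lower and 1 higher.

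**Figure D5:**
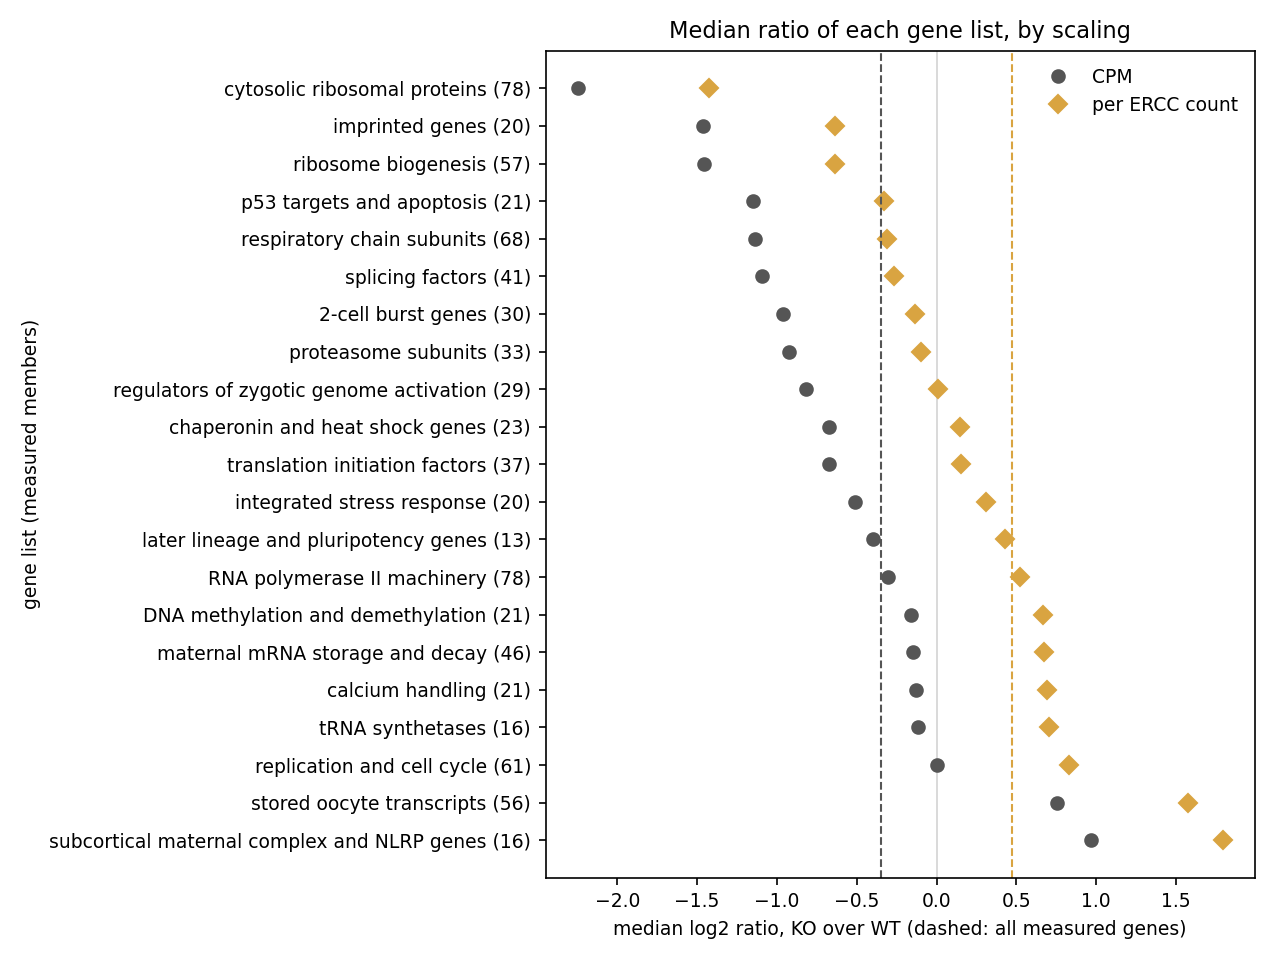
Each row is a gene list with at least 10 measured members (number in brackets), and points give the median log2 ratio, KO over WT with all 8 WT libraries, by CPM (circles) and per ERCC count (diamonds); dashed lines mark the medians over all measured genes, -0.35 and 0.47. Cytosolic ribosomal proteins are lowest at -2.25 and -1.42, and subcortical maternal complex and NLRP genes highest at 0.97 and 1.79.

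Many stored oocyte messages were more abundant in KO embryos. Of 56 measured, 25 were higher by CPM, 2 lower and 29 within 2-fold, beside 5.96% higher over all measured genes, with a median log2 ratio of 0.75, and per ERCC count 46 were higher and 0 lower, beside 29.6% higher over all genes, with a median of 1.58. Mos, the kinase that holds the egg in meiosis, had a log2 ratio of 3.66, which rested on KO replicate 4. It was at 1.85 to 137 CPM in KO libraries, 0.386 to 2.64 CPM in WT replicates 1 to 7 and 8.64 CPM in WT replicate 8. KO replicate 4 held the 137 CPM, and the next highest KO value was 19.4 CPM. Without KO replicate 4 the pools were at 8.95 CPM in KO and 3.15 CPM in WT, under the 10 CPM filter, with a log2 ratio of 1.51, and without WT replicate 8 the ratio was 4.81. The list summed to 6.46% to 10.3% of gene counts in KO libraries, a range that overlapped 3.96% to 6.80% in WT replicates 1 to 7 and 7.69% in WT replicate 8. Genes of maternal mRNA storage and decay had 13 of 46 lower and 6 higher by CPM, with a median of -0.15, and 7 lower and 19 higher per ERCC count, with a median of 0.67. Without WT replicate 8, 16 were lower and 12 higher by CPM, and without WT replicate 3, 4 were lower per ERCC count. Of all measured genes 31.6% were lower by CPM and 17.3% per ERCC count. Without WT replicate 8, 36.9% of all measured genes were lower and 11.3% higher by CPM. Ddx6, an RNA helicase of mRNA storage, was at 0.242 to 5.33 CPM in KO libraries, against 32.5 to 56.5 CPM in WT replicates 1 to 7. Pabpc1, the cytoplasmic poly(A)-binding protein, was at 4.48 to 48.4 CPM in KO libraries, against 74.1 to 242 CPM in WT replicates 1 to 7. WT replicate 8 had 3.11 CPM of Ddx6 and 16 CPM of Pabpc1, inside the KO range for both.

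Among 16 measured subcortical maternal complex and NLRP genes, 8 were higher by CPM and 1, Nlrp14, was lower. Per ERCC count 14 were higher and 1 lower. Over all measured genes 5.96% were higher by CPM and 29.6% per ERCC count, and 31.6% and 17.3% were lower. The count of 8 became 5 without KO replicate 4 or without WT replicate 4. The median log2 ratio by CPM, 0.97, became 1.54 without WT replicate 8. Zbed3, a partner of the complex, was at 16858 to 43543 CPM in KO libraries, 2181 to 10974 CPM in WT replicates 1 to 7 and 35283 CPM in WT replicate 8. Its log2 ratio of 1.41 became 2.73 without WT replicate 8. Nlrp5, a core member also called Mater, was at 118 to 825 CPM in KO libraries, 72.3 to 148 CPM in WT replicates 1 to 7 and 176 CPM in WT replicate 8. Its log2 ratio of 1.58 became 0.83 without KO replicate 4, under 2-fold. Ooep, at 1.11, became 0.69 without KO replicate 4 and 0.96 without WT replicate 4. Tle6, Padi6 and Nlrp2 were within 2-fold by CPM, at 0.44, 0.40 and 0.63, and Khdc3 at -0.56. Per ERCC count Tle6, Padi6 and Nlrp2 stood at 1.26, 1.23 and 1.46, and Khdc3 at 0.27. Nlrp4b had a log2 ratio of 1.72 and Nlrp4a of 1.54. Nlrp4a reached 2.27 without WT replicate 8. Nlrp4f, at 1.07, and Nlrp9b, at 1.05, reached 1.91 and 2.16 without WT replicate 8, and both dropped under 2-fold when 1 of several other libraries was left out. The Nlrp4 and Nlrp9 genes are close copies, so their counts are uncertain.

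Genes of DNA methylation and demethylation were mostly within 2-fold, with 2 of 21 measured higher by CPM and 2 lower, and a median log2 ratio of -0.16. Per ERCC count 6 were higher and 1 lower, and without WT replicate 8, 4 were higher and 4 lower by CPM. Among all measured genes 5.96% were higher and 31.6% lower by CPM, and 29.6% and 17.3% per ERCC count. Without WT replicate 8, 11.3% were higher and 36.9% lower by CPM. The share of list members higher per ERCC count was near that of all genes. Uhrf1, which recruits DNMT1 to replicating DNA, was higher at 125 to 364 CPM in KO libraries, 50.7 to 80.5 CPM in WT replicates 1 to 7 and 175 CPM in WT replicate 8. Its log2 ratio was 1.43 by CPM and 2.25 per ERCC count. Zfp57, which protects imprints, was at 172 to 1762 CPM in KO libraries, 171 to 264 CPM in WT replicates 1 to 7 and 1310 CPM in WT replicate 8. Its log2 ratio of 1.02 became 2.17 without WT replicate 8 and 0.76 without KO replicate 4, and it also dropped under 2-fold without KO replicate 5 or without any 1 of WT replicates 1 to 7. Uhrf2, a relative of Uhrf1, and Apex1, a base excision repair nuclease, were lower at -1.95 and -1.53 by CPM. Apex1 was at -0.70 per ERCC count, under 2-fold.

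Tet3, the dioxygenase of the zygote, was at 452 to 695 CPM in KO libraries, 136 to 329 CPM in WT replicates 1 to 7 and 577 CPM in WT replicate 8. Dppa3, a maternal factor that guards methylation, was at 4165 to 7554 CPM in KO libraries, 2575 to 3521 CPM in WT replicates 1 to 7 and 4396 CPM in WT replicate 8. Their log2 ratios of 0.81 and 0.88 became 1.20 and 1.05 without WT replicate 8, past 2-fold. All 9 KO libraries lay above WT replicates 1 to 7 for both genes and for Uhrf1, while WT replicate 8 lay in the KO range. By CPM 3 of the 21 list members were separated upward in this way and 1 downward. Over all genes measured without WT replicate 8 these shares were 3.53% and 13.4%. Dnmt1, the maintenance methyltransferase, was at 7.16 to 36.5 CPM in KO libraries and 16.2 to 30.4 CPM in all WT libraries, with a log2 ratio of 0.17 (0.06 to 0.29). Dnmt3a, a de novo methyltransferase, was at -0.14, Hells, a chromatin remodeller, at -0.18, Setdb1, a histone methyltransferase, at 0.28 and Parp1 at -0.69. KO and WT ranges overlapped for Dnmt1, Dnmt3a and Hells.

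Stress and death genes were mostly lower or within 2-fold by CPM. Of 21 measured p53 targets and apoptosis genes, 12 were lower by CPM and 0 higher, and per ERCC count 6 were lower and 4 higher. Without WT replicate 8, 3 were higher by CPM, and without KO replicate 3, 10 were lower per ERCC count. Beside these lists, 31.6% of all measured genes were lower and 5.96% higher by CPM, and 17.3% and 29.6% per ERCC count. Without WT replicate 8, 11.3% of all measured genes were higher by CPM. Cdkn1a, the p53 target coding for p21, was at 6.29 to 27.0 CPM in KO libraries, 58.0 to 99.3 CPM in WT replicates 1 to 7 and 12.2 CPM in WT replicate 8. Integrated stress response genes had 6 of 20 lower and 1 higher by CPM, near the 31.6% and 5.96% of all genes, and 4 lower and 5 higher per ERCC count. By CPM 3 were higher without WT replicate 8. Trib3, a target of that response, was at 0 to 28.5 CPM in KO libraries, against 7.83 to 35.6 CPM in WT replicates 1 to 7. Calcium handling genes had 5 of 21 lower and 2 higher by CPM, and 3 lower and 7 higher per ERCC count. Without KO replicate 4 none was higher by CPM, and without WT replicate 3, 4 were higher per ERCC count. Calm2, a calmodulin gene, was at 157 to 917 CPM in KO libraries, 1381 to 2428 CPM in WT replicates 1 to 7 and 466 CPM in WT replicate 8. Imprinted genes had 9 of 20 lower and 6 higher per ERCC count, and without WT replicate 8, 3 of 21 were higher by CPM. With all libraries 12 were lower and 0 higher by CPM, with Phlda2, a placental growth regulator, at -3.15, and -3.76 without KO replicate 4. Later lineage and pluripotency genes had 5 of 13 lower and 1 higher by CPM, and 4 lower and 3 higher per ERCC count. Fgf4, the growth factor of the inner cell mass, was at 0 to 0.933 CPM in KO libraries, 9.87 to 39.3 CPM in WT replicates 1 to 7 and 0 CPM in WT replicate 8. Its log2 ratio, -7.07, was below that of Inafm2, but its WT pool of 17.3 CPM was under the 20 CPM asked of the 12 lowest genes. The ratio became -7.68 without KO replicate 1 and -7.95 without KO replicate 8. Zfp42 was at 0 to 47.3 CPM in KO libraries, against 80.0 to 172 CPM in WT replicates 1 to 7. WT replicate 8, at 2.91 CPM of Zfp42, lay inside the KO range. Of 20 cumulus and granulosa markers, 4 were measured. Amhr2 was lower at -3.35 and Cyp19a1 higher at 1.53, and these became -4.15 without KO replicate 8 and 2.44 without WT replicate 8.

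Genes called in 2-cell embryos were partly called in the oocytes that share no library with them. Among MII oocytes whose ERCC counts exceeded 0.01% of all counts, 7 were KO and 10 WT, and 6038 genes had 10 CPM or more in either pool in both stages. Of these, 205 were 2-fold lower in KO oocytes (3.4%) and 539 higher (8.93%), while 971 were lower in KO 2-cell libraries (16.1%) and 467 higher (7.73%). Lower in both were 72 genes, 7.42% of those lower in 2-cell libraries and 35.1% of those lower in oocytes. Higher in both were 119 genes, 25.5% and 22.1%. Genes lower in 2-cell libraries had a median oocyte log2 ratio of -0.05 and genes higher in 2-cell libraries 0.55, beside 0.07 over all 6038. Over all oocytes, 19 KO and 14 WT, fewer genes were called. Of 5959 genes, 132 were lower (2.22%) and 104 higher (1.75%) in KO oocytes, while 968 were lower (16.2%) and 464 higher (7.79%) in KO 2-cell libraries. Lower in both were 51 genes, 5.27% of those lower in 2-cell libraries and 38.6% of those lower in oocytes. Higher in both were 27, 5.82% and 26.0%, and genes higher in 2-cell libraries had a median oocyte log2 ratio of 0.30. H1foo and Zar1 were at 5951 and 420 CPM in KO oocytes with spike-in, against 2722 and 101 CPM in WT oocytes with spike-in, over 2-fold higher in both cases. Over all 33 oocytes the log2 ratios were 0.73 for H1foo and 0.74 for Zar1, under 2-fold. The filter on 10 CPM in oocytes leaves out the genes that only 2-cell embryos express, among them the 12 lowest named genes.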

How the data were processed

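The authors deposited a table of raw read counts per gene symbol for 33 MII oocyte and 17 2-cell libraries, with no normalization, and a pair of tables of counts assigned to the maternal or paternal allele. The submitters' processing notes name STAR 2.6.0a, HTSeq 0.10.0, featureCounts 2.0.1, cutadapt 1.15, Trim Galore 0.6.6 and SAMtools 0.1.18, and the genome build mm9. Their roles, strand use and allele assignment are not given in the sources used here. The tables hold no cell barcodes. Of the rows, 24450 are genes and 92 ERCC spike-ins, which were left out of gene totals. In 2-cell libraries 2046 of 244199 gene and library values above 0 had more allele than total counts. Reads without molecular identifiers are not independent molecules, so intervals cover counting error only, and no pair of libraries of a group agreed within sampling noise (chi-square per gene at least 18.6).

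Counts were summed over the libraries of a group, which weights deep libraries more, divided by the summed gene counts (CPM) or by the summed ERCC counts, and compared as KO over WT with Python 3.11.15, pandas 2.3.3, numpy 2.4.6 and scipy 1.17.1. With 1 sample a group no test was run, and a count model was therefore not used for calls. Genes needed 10 CPM or more in either pool, and a call was 2-fold. Alternatives were each library left out, TMM (edgeR 4.0.16) and DESeq2 1.42.0 scaling in R 4.3.3, the median of libraries, and no filter or 50 CPM. The calculation was checked on simulated counts with known folds and counting error only. These had no other spread between libraries, so the check does not show how reliable the 2-fold calls are here. Named genes were Nlrp14, the 12 lowest and 12 highest ratios among genes at 20 CPM or more whose KO libraries all lay on 1 side of WT replicates 1 to 7, predicted genes left out, up to 4 members per list with the largest ratio, and members of the DNA methylation and NLRP lists; genes outside it are said to be chosen after their values were seen. Members and the 25 lists were chosen with earlier results of these data known. Promoter windows are from RefSeq (GRCm38.p6).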

Additional observations from a re-analysis of the deposited data

Results flagged for a closer look

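In each group the highest and the lowest library were compared with their nearest neighbour by Dixon's ratio at its 95% critical value, on log2(CPM + 1) for the genes reported and on the library measures. Of 198 groups of values, 36 single libraries stood apart, and 27 of the 36 were WT replicate 8. The groups share libraries, and many genes were named by a rule that exempts WT replicate 8. No rate by chance is therefore set beside these counts, which are a description.

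WT replicate 8 stood apart from the other WT libraries with 10303580 gene counts and 1714 gene counts per ERCC count. Counts per ERCC count from genes at 100 CPM or more in oocytes were 1295 there, and 323 from genes at 10 to under 100 CPM. It stood low for genes of the embryo, at 0.679 CPM of Lck, 5.82 CPM of Smad7, 0.194 CPM of Hsd17b14, 2.04 CPM of Nop16, 5.05 CPM of Crxos, 33.8 CPM of Trim43b, 0 CPM of Fgf4 and 2.91 CPM of Zfp42. It was also low for housekeeping genes, at 4.66 CPM of Polr2k, 6.99 CPM of Rpl39, 1.75 CPM of Rpl38, 0.0971 CPM of Wdr12, 44.8 CPM of Srsf7, 1.65 CPM of Snrpd2, 3.11 CPM of Ddx6, 16 CPM of Pabpc1, 466 CPM of Calm2 and 12.2 CPM of Cdkn1a. It stood high for genes stored by the oocyte, at 1786 CPM of H1foo, 140 CPM of Zar1, 421 CPM of Nlrp9b, 175 CPM of Uhrf1 and 1310 CPM of Zfp57. Its Nlrp14 level, 106 CPM, was above every KO library.

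KO replicate 3 was the highest KO library for Arg1 at 9.62 CPM, Smad7 at 5.18 CPM and Ndufc1 at 15.5 CPM, and the lowest for Cyp19a1 at 0.370 CPM. KO replicate 1 had 8.40 CPM of Zfp280c, KO replicate 9 had 490 CPM of Hells, and WT replicate 1 had 106 CPM of Padi6. KO replicate 4 stood apart in depth, with 15007301 gene counts. KO replicate 9 was low for genes at 1 to under 10 CPM in oocytes, at 35.1 counts per ERCC count.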

How the results depend on the processing

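The counts of called genes depended on scaling and filter. By CPM, 502 genes were higher in KO libraries. This count was 2493 per ERCC count, 1121 with TMM, 939 with DESeq2 scaling, 826 from the median of libraries, 273 with a filter at 50 CPM and 2472 with no filter. The 2658 lower genes became 1454 per ERCC count, 978 at 50 CPM and 7749 with no filter. At 50 CPM the ERCC-scaled counts were 1362 higher and 504 lower. With each library left out, 397 (without KO replicate 4) to 981 (without WT replicate 8) were higher by CPM. Genes with all KO libraries above all WT libraries then numbered 28 to 305, and below 115 to 1157, both highest without WT replicate 8, and 64 lay below per ERCC count. Nlrp14 was at -1.20 per ERCC count on the log2 scale. All 121 named genes called by CPM kept their direction from the median of libraries, and 114 stayed 2-fold per ERCC count. The other scalings added a constant to every pooled log2 ratio, 0.82 per ERCC count, 0.36 with TMM and 0.27 with DESeq2. A call needs a 2-fold ratio, so these scalings could not turn its direction. The shares by oocyte class and gene counts per ERCC count moved by less than the spread between KO libraries. The cause of these shifts was not tested. No paired analysis was possible because no test was run and the replicate numbers name libraries only. The shallowest library, KO replicate 3, held 2704050 gene counts, which limits values near 0 there, and KO replicate 4 weighs most in pooled ratios. Counts of 2 or fewer genes within a list shifted with several of the libraries left out, a check added after the data were seen.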

Other observations

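Libraries of a genotype differed among themselves. KO replicates 3 and 8 had the lowest gene counts per ERCC count of the KO libraries, 1044 and 1356, and the highest paternal shares, 8.68% and 6.34%. KO replicate 9 had the lowest paternal share, 1.21%, and 1560 gene counts per ERCC count. WT replicate 1 lay nearest to the KO libraries among WT replicates 1 to 7, with a correlation of 0.832 with the KO median and 0.842 with the WT median. Its paternal share was 9.03%, and genes under 1 CPM in oocytes gave 2.92% of its gene counts. It also had the highest H1foo level of these 7 libraries, 174 CPM, and the lowest Trim43b, 180 CPM.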
